A study of Mus musculus with 6 samples.

Results

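Chromatin accessibility at the genes that carry a neural stem cell (NSC) from G1 into S phase was described for 9 genes: the D-type cyclins Ccnd1, Ccnd2 and Ccnd3, the E-type cyclins Ccne1 and Ccne2, the kinases Cdk4 and Cdk6, and the transcription factors Myc and Mycn. All peaks that touched a gene body or the 50 kb on either side of it were taken, and peaks overlapping by at least 1 bp in any library were merged. This gave 121 regions of 119719 in the whole genome, and 9 genes of 21938 protein-coding ones. No region belonged to a pair of members at once. Each region is named by its gene and its order along the chromosome, so that Ccnd2_r12 is the twelfth region of the Ccnd2 window.

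The libraries came from ATAC-seq, in which a transposase inserts adapters into open DNA, on adult NSC cultures of the mouse subependymal zone (SEZ). Every culture lacked Srr2, a Sox2 enhancer that had been removed from both alleles with CRISPR-Cas9 (Srr2 del/del), and came from mice of 10 weeks. Proliferating cultures (PROLIF) were taken at 2 days in vitro with mitogens, and early differentiating cultures (DIFF) after 1 further day in which mitogens were withdrawn and serum was added. For PROLIF the sample labels give 2 days, while the design text of the record gives 3. There were 3 libraries of each state, numbered 1, 2 and 4. The deletion was thus shared by both groups, wild-type libraries were not analysed here, and every comparison below is between states within the mutant. Mitogen withdrawal and serum came together, so they cannot be told apart. The labels do not say whether libraries of a state came from separate animals, so p-values measure the spread between these libraries only.

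D-type cyclins accumulate when growth factors act on a cell and activate CDK4 and CDK6, which phosphorylate the retinoblastoma protein and release E2F factors. E-type cyclins are classical E2F targets that activate CDK2 and complete the passage into S phase. MYC and MYCN bind E-boxes as partners of MAX and drive growth and cell cycle genes, among them D-type cyclins and Cdk4. Cyclin D2 is known for its role in the dividing precursors of the adult brain, and MYCN for its role in neural progenitors.

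Each library's list held between 60006 and 88039 peaks, and the background pileup recovered from the lists, which follows depth, lay between 2.85 and 6.01 reads. DIFF replicate 4 was the deepest and PROLIF replicate 1 had the longest list of its state. The neural stem and progenitor genes Sox2, Nes, Fabp7, Slc1a3, Vim, Olig2 and Egfr each had a promoter peak in all 6 libraries. The defining genes Cx3cr1 of microglia, Cldn5, Cdh5 and Tek of endothelium, Hba-a1 and Hbb-bt of erythroid cells and Alb of liver had none in any library. Of further genes on those lists, Csf1r and Apoa2 had a peak in 6 libraries, Tmem119 and Aif1 in 5 and Pecam1 in 3.

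The G1 genes were open in both states. Of their 121 regions, 57 (47.1%) had a peak in all 6 libraries, where 36.6% of the 93841 regions within 50 kb of any protein-coding gene did. Taken window by window over protein-coding genes, the median share was 42.9%. Another 30 of the 121 were found in 2 to 5 libraries. The remaining 34 (28.1%) rested on 1 library, against 27.0% near all protein-coding genes. These were unevenly spread, with 16 in PROLIF replicate 1, 12 in DIFF replicate 4, 3 in DIFF replicate 2, 2 in DIFF replicate 1, 1 in PROLIF replicate 2 and 0 in PROLIF replicate 4. The libraries with the longest lists thus held most of the regions seen only once, and the part of depth in this was not tested.

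Of the 121 regions, 25 lay within 3 kb of an annotated start site of the member itself, and 18 of these were found in all 6 libraries. A further 25 lay within 3 kb of the start of another protein-coding gene only, with 14 in all 6 libraries. The other 71 were distal, of which 25 were found in all 6 libraries and 24 in 1 library. By annotation 58 regions were intronic, 35 intergenic and 10 in noncoding exons, with the rest in coding exons or UTRs. The widest was the Cdk6 promoter region, at 2738 bp. Regions found in all 6 libraries had a median width of 897 bp, against 770 bp for all 40102 such regions of the genome.

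**Figure D1:**
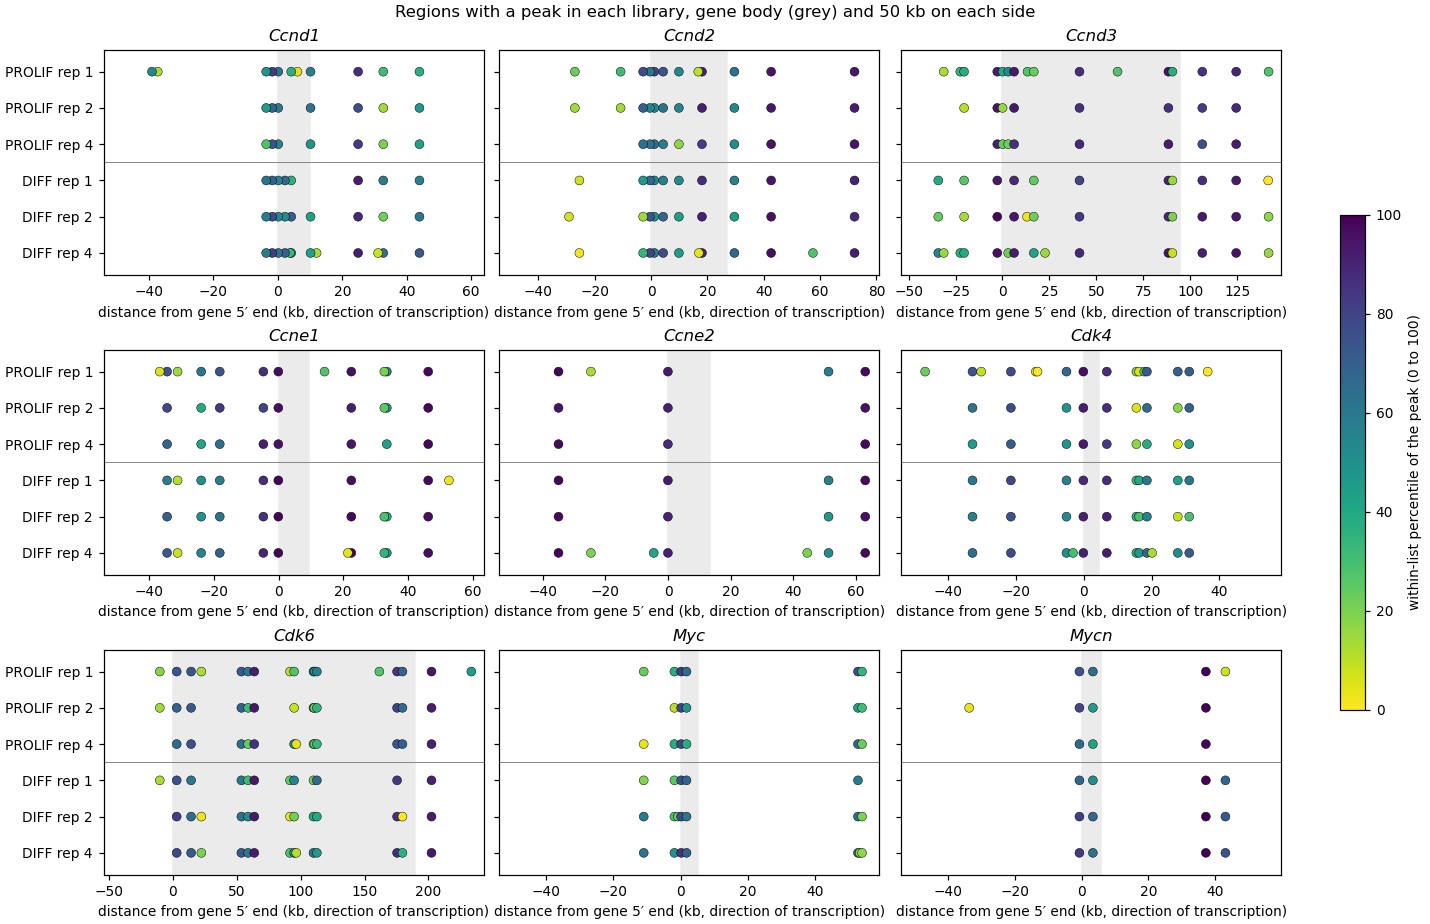
Peaks in the windows of the 9 genes. The horizontal axis is the distance of each region's summit from the gene's 5′ end in kb, in the direction of transcription. Each row is 1 library (PROLIF above the line, DIFF below it), and grey marks the gene body. Colour gives the percentile of the peak in its own list from 0 to 100, with dark for high. Columns through all 6 rows are the 57 shared regions, some of them pale, such as Cdk4_r11 at percentiles 5.73 to 36.2. Points found in 1 library are mostly in PROLIF replicate 1 and DIFF replicate 4.

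The first question was whether the number of peaks around these genes differed between the states. The 9 windows together held 104, 71 and 74 peaks in PROLIF replicates 1, 2 and 4, and 84, 84 and 100 in the DIFF libraries. The means were 83.0 ± 18.2 and 89.3 ± 9.24 peaks (SD, n = 3), and the groups overlapped (p = 0.6 by a two-sided exact permutation test). Per 10000 peaks of the list they were 11.9 ± 1.05 and 11.7 ± 0.269 (exact permutation, p = 0.9). The smallest p that 3 libraries a state allow is 0.1.

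The counts of the states overlapped for each of the 9 genes. In the genome, 8.43% of windows with a peak had more peaks in all DIFF than in all PROLIF libraries, and 1.62% the reverse, and 0 of the 9 windows did either. The difference was largest at Ccnd3, with 16, 8 and 8 peaks in PROLIF and 11, 12 and 15 in DIFF (exact permutation test, p = 0.6). At Cdk4 the counts were 18, 9 and 11 in PROLIF and 11, 11 and 13 in DIFF, so the high value was PROLIF replicate 1 alone. The share of each list in the megabase of chromosome 10 that holds Cdk4 lay between 0.0836% and 0.0909% in the 6 libraries. Adjusted over the 9 genes, every p was 1. Regions per 100 kb ranged from 4.72 at Mycn to 17.2 at Cdk4, where the window holds 9 other protein-coding genes, with a median of 6.35 over all protein-coding genes.

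**Figure D2:**
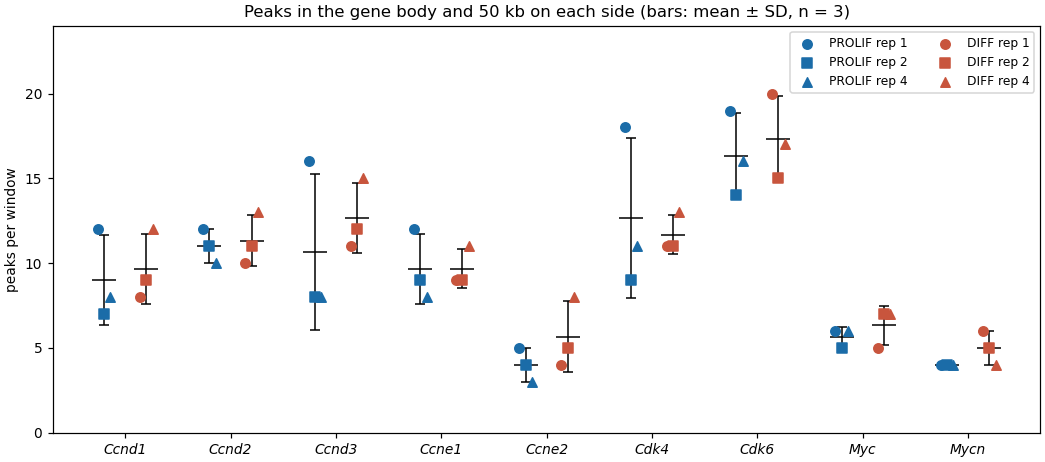
Number of peaks in the gene body and 50 kb on each side of each gene (vertical axis), by library. Circles, squares and triangles are replicates 1, 2 and 4, blue is PROLIF and red DIFF, and bars are mean ± SD with n = 3; the points of the states overlap at all 9 genes, and PROLIF replicate 1 stands above the other PROLIF libraries at Ccnd3 and Cdk4.

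Promoter peaks were found at all 9 members in every one of the 6 libraries, and at 64.6% of protein-coding genes. Peaks are ranked here by the −log10 p of the peak caller within their own list, and a percentile of 90 means that 90% of the peaks of that list ranked lower. By the median over the 6 libraries the best-ranked promoter region of Ccne1 came first, at percentiles 96.5, 96.1 and 95.5 in PROLIF and 98.6, 99.2 and 98.9 in DIFF. In PROLIF replicate 1 the Cdk4 region stood above it, at 96.7. Ccnd3, Ccne2 and Cdk4 followed, with every library between 88.0 and 97.3, and the Ccnd3 region is also the start of Taf8. Myc, Mycn, Ccnd1, Cdk6 and Ccnd2 lay lower, between 58.1 and 84.9, and these 5 overlapped one another. The E cyclins, Ccnd3 and Cdk4 were thus separated from the other genes in every library.

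**Figure D3:**
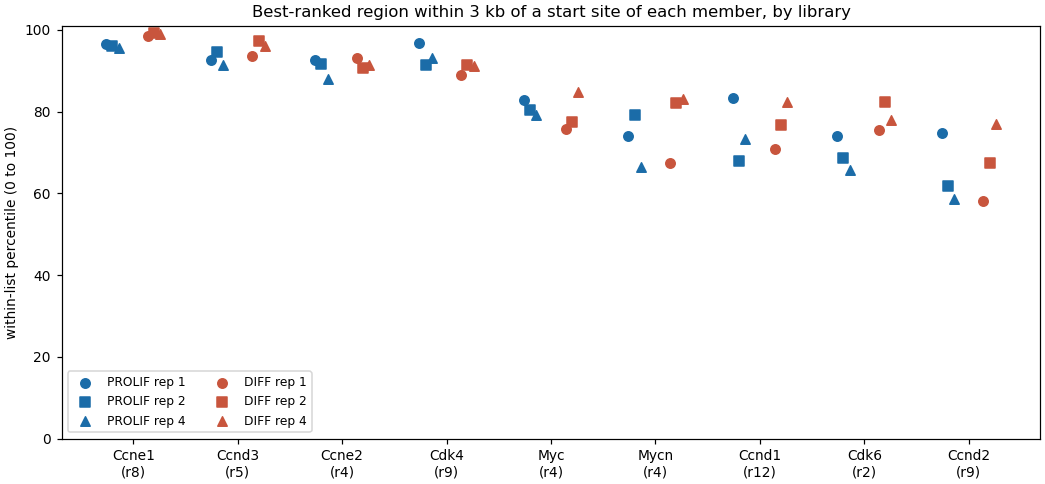
Percentile of the best-ranked region within 3 kb of a start site of each gene (vertical axis, 0 to 100), by library. Circles, squares and triangles are replicates 1, 2 and 4, blue is PROLIF and red DIFF; Ccne1, Ccnd3, Ccne2 and Cdk4 stand at 88.0 or above in all 6 libraries and the other 5 genes at 84.9 or below. The Ccnd3 region is also the start of Taf8.

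The next question was whether regions open in both states differed in strength. For each of the 40102 regions with a peak in all 6 libraries, the log2 of the fold enrichment (the pileup at the summit over the local background of that library) was quantile normalised and compared with limma. Of the 57 shared regions of the G1 genes, 1 was higher in PROLIF (1.75%) and 1 higher in DIFF (1.75%) at an adjusted p under 0.05. Over all shared regions 7.73% were higher in PROLIF and 5.93% higher in DIFF. The median log2 difference (DIFF minus PROLIF) was 0.02 for the members and 0.03 for all shared regions, and 31 of the 57 lay above 0. The median size of the difference, regardless of sign, was 0.13 for the members and 0.19 for all shared regions. At an unadjusted p under 0.05 there were 12 member regions, 9 higher and 3 lower in DIFF, and 28.0% of all shared regions passed the same limit.

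**Figure D4:**
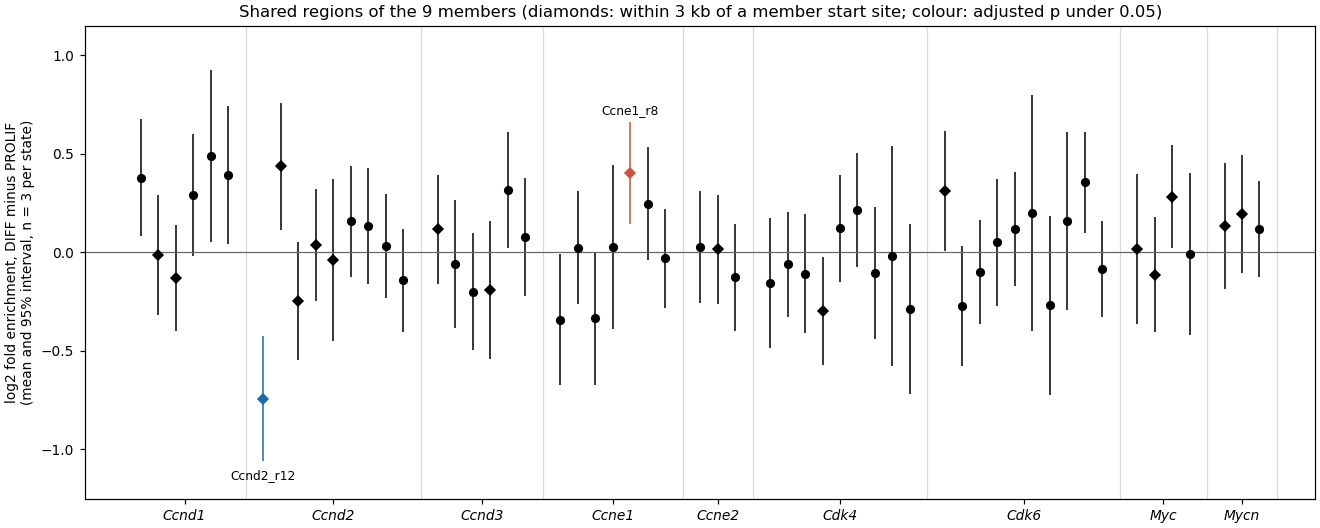
Difference in log2 fold enrichment (DIFF minus PROLIF, vertical axis) at the 57 regions found in all 6 libraries, ordered within each gene by distance from its 5′ end. Points are limma estimates with their 95% intervals (n = 3 per state), diamonds lie within 3 kb of a start site of the gene, and the coloured pair had an adjusted p under 0.05: Ccnd2_r12 at -0.74 and Ccne1_r8 at 0.40.

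The region higher in PROLIF was Ccnd2_r12, upstream of the cyclin D2 gene. Ccnd2 (ENSMUSG00000000184.12) spans bases 127125162 to 127152193 of chromosome 6 on the minus strand of GRCm38, and Ccnd2_r12 (chr6:127154695-127155177) has its summit 2834 bp upstream of the gene's 5′ end, in an intron of the noncoding gene 9330179D12Rik. Its fold enrichment was 5.93, 4.98 and 4.49 in PROLIF replicates 1, 2 and 4, and 3.39, 2.63 and 2.57 in the DIFF libraries. The groups did not overlap, with means of 5.13 ± 0.729 and 2.86 ± 0.462 (SD, n = 3). The percentiles were 77.5, 68.9 and 62.9 in PROLIF and 46.1, 13.8 and 33.3 in DIFF. The normalised difference was -0.74 on the log2 scale (SE 0.141, limma adjusted p = 0.00908), and it kept its call with the replicate number as a block (adjusted p = 0.00984). Leaving out each library in turn gave limma adjusted p from 0.00713 to 0.0461.

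The sequence within 100 bp of its summit is shown because this is the region with the larger difference of the pair. It is read on the strand of Ccnd2 (GRCm38, chr6:127154927-127155127), and capitals mark matches to the GC box GGGCGG or its complement.
Ccnd2_r12: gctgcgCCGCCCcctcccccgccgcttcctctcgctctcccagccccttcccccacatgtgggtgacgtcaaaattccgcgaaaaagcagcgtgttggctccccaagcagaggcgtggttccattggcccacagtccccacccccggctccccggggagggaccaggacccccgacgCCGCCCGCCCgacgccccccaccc
It holds 3 GC box matches, of which the last pair overlap, and no CACGTG. A GC box stood within 100 bp of the summit in 12.7% of all regions and in 21.5% of the 121. Among regions found in all 6 libraries, as this one was, the share was 26.1% in the genome and 33.3% of the 57.

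Ccnd2 had a chain of regions around its start, of which Ccnd2_r12 alone passed the test. Ccnd2_r11 (chr6:127152396-127152780), whose summit lies 423 bp upstream of the 5′ end, had fold enrichments of 3.76, 3.56 and 4.12 in PROLIF and 4.12, 5.53 and 5.24 in DIFF. This was a log2 difference of 0.44 (SE 0.143), which missed the threshold (limma adjusted p = 0.0762, and 0.0503 with the block). Ccnd2_r10 (chr6:127150958-127152030), over the start itself, gave 5.56, 3.59 and 4.26 in PROLIF and 3.43, 3.64 and 3.42 in DIFF (log2 difference -0.25, limma adjusted p = 0.268). The best-ranked promoter region was Ccnd2_r9 (chr6:127147765-127148129), in a noncoding exon of Ccnd2 close to an alternative start, with a log2 difference of 0.04 (SE 0.126, limma adjusted p = 0.885). Differences between these neighbours were not tested.

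Among distal regions of the Ccnd2 window, over 3 kb from any protein-coding start, Ccnd2_r1 (chr6:127079705-127080594) ranked highest, in an intron of Fgf23. It ranked between percentiles 88.8 and 94.6 in the 6 libraries, with a log2 difference of -0.14 (SE 0.117, limma adjusted p = 0.492). Of the 16 regions of the window, 9 were shared by all libraries, 3 were found in 2 to 5 libraries and 4 in 1.

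Ccnd1 encodes cyclin D1, the D-type cyclin best known as a target of mitogen signalling. The gene (ENSMUSG00000070348.5) lies on chromosome 7 from 144929931 to 144939925 on the minus strand. Its window held 15 regions, 6 of them in all 6 libraries, 3 in 2 to 5 libraries and 6 in 1. The region over the start, Ccnd1_r11 (chr7:144939641-144940425), ranked between percentiles 52.4 and 63.3, with a log2 difference of -0.13 (SE 0.120, limma adjusted p = 0.548). Without PROLIF replicate 2 it split, and its upstream part (chr7:144940017-144940425) had a peak in both remaining PROLIF libraries and in no DIFF library. Regions of that pattern then made up 3 of 123 (2.44%), against 2.67% near protein-coding genes. At a cover of at least 50% Ccnd1_r11 was PROLIF-only as well. The best-ranked promoter region, Ccnd1_r12 (chr7:144941269-144942315), has its summit 1729 bp upstream, with percentiles of 83.4, 68.0 and 73.3 in PROLIF and 70.7, 76.7 and 82.2 in DIFF. The groups overlapped, and the log2 difference was -0.01 (SE 0.134, limma adjusted p = 0.967).

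Ccnd1 had a region found in all 3 DIFF libraries and in no PROLIF library. Ccnd1_r10 (chr7:144937524-144937918) lies in an intron, with its summit 2208 bp downstream of the 5′ end. Its edge is 279 bp from an alternative Ccnd1 start, so it counts among the regions within 3 kb of a member start. Its fold enrichment in DIFF was 4.18, 3.80 and 4.02, at percentiles 66.5, 52.5 and 70.3. Of the 121 member regions, 2 (1.65%) had this pattern, where 3.61% of regions near protein-coding genes did. Without PROLIF replicate 1 the count was 9 of 106 (8.49%) against 6.54% near protein-coding genes. With lists of equal length it was 5 of 90 (5.56%) against 3.94%. The members lay above the wider share under these settings, and below it with all libraries and under every other setting. A missing peak means a signal under the caller's threshold and not closed chromatin. The call was lost when a peak had to cover at least 50% of the merged region, because the peak of DIFF replicate 2 covered 45.8% of it.

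The sequence around its summit is shown as that of the best-ranked DIFF-only region (GRCm38, chr7:144937617-144937817, strand of Ccnd1). Capitals mark matches to the short NFI motif TTGGCA and to the GC box, on either strand.
Ccnd1_r10: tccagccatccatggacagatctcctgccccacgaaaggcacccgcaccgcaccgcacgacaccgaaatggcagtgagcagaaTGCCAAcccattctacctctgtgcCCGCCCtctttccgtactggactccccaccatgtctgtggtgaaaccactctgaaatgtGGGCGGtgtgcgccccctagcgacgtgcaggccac
It holds 1 short NFI match and 2 GC box matches. Short NFI matches stood in 18.3% of all regions.

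Further regions stood close to the Ccnd1 start. Of the distal regions found in more than 1 library, Ccnd1_r13 (chr7:144943317-144943609), 3618 bp upstream, had the highest median percentile over the libraries that called it, with fold enrichments of 3.56, 3.64 and 3.05 in PROLIF and 4.29, 4.66 and 3.56 in DIFF. Its log2 difference was 0.38 (SE 0.133), which did not pass (limma adjusted p = 0.0937). The lower-ranked distal region Ccnd1_r2 had higher mean fold enrichments, of 3.99 in PROLIF and 5.28 in DIFF against 3.42 and 4.17 at Ccnd1_r13. Ccnd1_r8 (chr7:144935638-144935996) lies in an intron 4153 bp downstream, with its edge 2201 bp from the alternative start. It had a peak in all 3 DIFF libraries, with fold enrichments of 3.00, 5.91 and 3.58, and in PROLIF replicate 1 alone, at 3.33. It was singled out after its values were seen.

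Ccnd3 encodes cyclin D3 and has start sites far apart. The gene (ENSMUSG00000034165.16) lies on chromosome 17 from 47505051 to 47599691 on the plus strand, and its window held 20 regions, the most of the 9 genes, with 6 in all 6 libraries, 9 in 2 to 5 and 5 in 1. The best-ranked promoter region, Ccnd3_r5 (chr17:47501682-47502638), lies over the start of the divergent gene Taf8, 2767 bp upstream of the Ccnd3 5′ end. Its fold enrichment was 13.7, 13.1 and 10.9 in PROLIF and 11.5, 15.7 and 13.2 in DIFF (log2 difference 0.12, SE 0.123, limma adjusted p = 0.602). A second shared region, Ccnd3_r15 (chr17:47593129-47594116), covers a start site 88409 bp into the gene. It ranked between percentiles 86.4 and 95.1 (log2 difference -0.19, SE 0.156, limma adjusted p = 0.487).

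At the outermost 5′ end of Ccnd3 the region was weak and found in PROLIF only. Ccnd3_r6 (chr17:47504941-47505194) had fold enrichments of 3.53, 2.71 and 3.20 in the PROLIF libraries, at percentiles 40.0, 16.3 and 24.0, and no peak in the DIFF libraries. PROLIF-only regions made up 2 of the 121 (1.65%), where 1.69% of regions near protein-coding genes had this pattern. Without PROLIF replicate 4 there were 4 of 122 (3.28%), against 3.33%. Ccnd3_r1 (chr17:47470631-47471074), intergenic and 34202 bp upstream, was the second DIFF-only region. Its fold enrichment in DIFF was 4.27, 4.11 and 4.99, at percentiles 39.3, 24.1 and 55.3. The peaks of these regions were short: that of PROLIF replicate 2 covered 46.1% of Ccnd3_r6, and those of DIFF replicates 1 and 2 covered 31.3% and 42.6% of Ccnd3_r1, so neither call held at a cover of at least 50%.

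Both are shown because they differ in occupancy by state. The Ccnd3_r6 stretch ends at the base before the gene start (GRCm38, chr17:47505000-47505050), and the Ccnd3_r1 stretch spans 100 bp on each side of its summit (chr17:47470749-47470949), each on the plus strand. Capitals mark SOX (ACAAAG or ACAATG), short NFI and GC box matches on either strand.
Ccnd3_r6: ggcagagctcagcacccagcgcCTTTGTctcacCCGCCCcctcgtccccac
Ccnd3_r1: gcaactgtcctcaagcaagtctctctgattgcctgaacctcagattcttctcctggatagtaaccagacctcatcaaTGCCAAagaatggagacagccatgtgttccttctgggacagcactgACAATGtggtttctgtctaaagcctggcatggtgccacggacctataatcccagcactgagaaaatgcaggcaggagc
Each holds 1 SOX match, a motif within 100 bp of the summit in 29.1% of all regions and 21.5% of the 121. These shares are for windows of 201 bases. The Ccnd3_r6 stretch is only the 51 bases of its window upstream of the gene start, without the summit.

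Ccnd3_r8 (chr17:47511062-47511613) was the best-ranked distal region of Ccnd3, in an intron 6192 bp downstream of the 5′ end. Its fold enrichment was 14.1, 13.4 and 9.60 in PROLIF and 10.0, 14.3 and 10.6 in DIFF, with overlapping groups (log2 difference -0.06, SE 0.143, limma adjusted p = 0.845).

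Ccne1 encodes cyclin E1, and its promoter region was the one shared region higher in DIFF. The gene (ENSMUSG00000002068.16) lies on chromosome 7 from 38097984 to 38107534 on the minus strand, and no other protein-coding gene reaches into its window. Ccne1_r8 (chr7:38106802-38108168) covers the start site. Its fold enrichment was 10.1, 8.89 and 8.58 in PROLIF and 11.02, 13.3 and 11.3 in DIFF. The groups did not overlap, with means of 9.19 ± 0.803 and 11.9 ± 1.23 (SD, n = 3). The normalised difference was 0.40 on the log2 scale (SE 0.116, limma adjusted p = 0.0480). The call was lost with the replicate number as a block (limma adjusted p = 0.0707) and without any 1 of the 6 libraries (adjusted p from 0.0637 to 0.133), while the difference stayed between 0.36 and 0.44.

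The bases upstream of the start that lie within 100 bp of the summit are shown, because this promoter had the highest median rank of the 9 genes (GRCm38, chr7:38107535-38107688, strand of Ccne1). Capitals mark GC box matches.
Ccne1_r8: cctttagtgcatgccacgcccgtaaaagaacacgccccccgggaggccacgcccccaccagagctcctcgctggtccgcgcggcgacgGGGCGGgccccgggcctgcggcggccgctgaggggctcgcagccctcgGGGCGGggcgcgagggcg
It holds 2 GC box matches and no match to the 4 E2F sequences searched (TTTCCCGC, TTTCGCGC, TTTGCCGC and TTTGGCGC). Those were within 100 bp of the summit in 0.808% of all regions and 1.65% of the 121. Among regions found in all 6 libraries the share was 1.44% in the genome and 3.51% of the 57. The shares are for windows of 201 bases, and the stretch printed is 154 bases of its window.

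None of the other 6 shared regions of the Ccne1 window passed the test. Ccne1_r2 (chr7:38060855-38061818), its best-ranked distal region, lies in an intron of the noncoding gene Gm30684, 46269 bp downstream of the Ccne1 5′ end. It ranked between percentiles 96.8 and 98.3 in all 6 libraries, with a log2 difference of -0.03 (SE 0.111, limma adjusted p = 0.898). Ccne1_r10 (chr7:38125382-38126335), 18159 bp upstream, had fold enrichments of 8.75, 9.89 and 6.58 in PROLIF and 5.52, 7.12 and 6.28 in DIFF (log2 difference -0.34, SE 0.150, limma adjusted p = 0.181). Of these 6 regions, 3 lay above 0 and 3 below.

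Ccne2, the gene of cyclin E2, showed no difference that passed the test. The gene (ENSMUSG00000028212.16) lies on chromosome 4 from 11191351 to 11204779 on the plus strand. Its window held 7 regions, 3 in all 6 libraries. The promoter region Ccne2_r4 (chr4:11190485-11192437) had fold enrichments of 10.4, 9.99 and 9.19 in PROLIF and 9.37, 10.3 and 9.30 in DIFF. The log2 difference was 0.02 (SE 0.123, 95% interval -0.26 to 0.29, limma adjusted p = 0.958). The other shared regions, Ccne2_r1 and Ccne2_r7, stood at the starts of the neighbouring genes Trp53inp1 and Ints8, at percentiles from 95.2 to 99.0. Among distal regions Ccne2_r6 (chr4:11242493-11242627), in an intron of Ints8, ranked highest and had a peak in PROLIF replicate 1 and in all 3 DIFF libraries, at percentiles 59.0 in the former and 56.9, 46.9 and 52.2 in the latter.

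Cdk4 encodes a kinase partner of the D-type cyclins. The gene (ENSMUSG00000006728.12) lies on chromosome 10 from 127063534 to 127067920 on the plus strand, in a gene-dense window of 18 regions, 9 of which were found in all 6 libraries and 8 in 1. The promoter region Cdk4_r9 (chr10:127063137-127064138) also lies within 3 kb of a start of March9. Its fold enrichment was 12.8, 9.18 and 9.24 in PROLIF and 7.14, 9.76 and 7.56 in DIFF. The log2 difference was -0.30 (SE 0.121, 95% interval -0.57 to -0.02), which missed the threshold (limma adjusted p = 0.147). Of the 9 shared regions, 7 lay below 0 and 2 above, and 0 passed the test. Cdk4_r17 (chr10:127094194-127095258), intergenic, was the best-ranked distal region, with percentiles of 71.1, 69.2 and 47.9 in PROLIF and 59.8, 28.7 and 71.7 in DIFF, so its spread within each state was wide.

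The Cdk4 promoter is shown for its E-boxes, the motif that MYC and MAX bind. The 249 bases end at the base before the annotated gene start (RefSeq promoter table, GRCm38, chr10:127063285-127063533, plus strand). Capitals mark CACGTG, the TCF/LEF motif CTTTGAT and the GC box, on either strand.
Cdk4: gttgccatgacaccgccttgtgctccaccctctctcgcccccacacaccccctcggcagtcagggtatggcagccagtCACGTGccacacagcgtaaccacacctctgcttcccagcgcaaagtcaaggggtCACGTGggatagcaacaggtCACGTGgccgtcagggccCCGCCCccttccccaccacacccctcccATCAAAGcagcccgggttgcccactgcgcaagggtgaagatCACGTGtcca
CACGTG occurs 4 times in this stretch. It occurs at least once in the 250 upstream bases of 6.02% of the 32851 promoters of the table. Within 100 bp of the summit, CACGTG stood in 7 of the 121 member regions (5.79%) and in 3.41% of all regions, and the 7 included the promoter regions of Cdk4 and Ccne2.

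Cdk6, the other kinase partner of the D-type cyclins, has the longest of the 9 gene bodies, at 189524 bp. The gene (ENSMUSG00000040274.11) lies on chromosome 5 from 3341485 to 3531008 on the plus strand. Of its 18 regions, 10 were found in all 6 libraries, the most of the 9 genes, and 2 in 1 library. The promoter region Cdk6_r2 (chr5:3342029-3344766) had fold enrichments of 6.23, 5.34 and 5.37 in PROLIF and 6.001, 8.42 and 5.83 in DIFF (log2 difference 0.31, SE 0.135, limma adjusted p = 0.170). Its best-ranked distal region was the intronic Cdk6_r7 (chr5:3404677-3405801), 63722 bp downstream of the 5′ end, at percentiles from 85.2 to 93.7 (log2 difference 0.12, SE 0.129, limma adjusted p = 0.611). Another intronic region, Cdk6_r15 (chr5:3516525-3517346), had fold enrichments of 11.05, 9.31 and 7.58 in PROLIF and 10.4, 13.3 and 11.01 in DIFF (log2 difference 0.35, SE 0.114, limma adjusted p = 0.0723).

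Cdk6 held the second PROLIF-only region. Cdk6_r12 (chr5:3451908-3452359), in an intron 110795 bp downstream of the 5′ end, had fold enrichments of 4.84, 3.30 and 3.81 at percentiles 48.5, 17.1 and 23.0. The peak of PROLIF replicate 2 covered 32.3% of it, so this call too was lost at a cover of at least 50%. The sequence around its summit is shown as the intronic PROLIF-only region (GRCm38, chr5:3452180-3452380, plus strand), with the E-box CAGATG, here on the other strand, in capitals.
Cdk6_r12: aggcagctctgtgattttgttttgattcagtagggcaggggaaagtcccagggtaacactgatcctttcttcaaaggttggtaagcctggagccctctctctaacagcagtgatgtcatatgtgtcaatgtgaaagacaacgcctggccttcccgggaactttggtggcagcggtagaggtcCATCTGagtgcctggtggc
CAGATG stood within 100 bp of the summit in 17.3% of all regions and 8.26% of the 121.

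Near the 3′ end of Cdk6 lay Cdk6_r16 (chr5:3520681-3521368), singled out after its values were seen. Its fold enrichment was 7.27, 6.82 and 6.89 in PROLIF and 2.54 and 3.35 in DIFF replicates 2 and 4, and DIFF replicate 1 had no peak. All PROLIF values were above both DIFF values. With one library missing it was outside the 57 shared regions. Over regions found in at least 2 libraries of each state, with the missing value left out, its log2 difference was -1.17 (limma adjusted p = 0.00828).

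Myc (ENSMUSG00000022346.15) lies on chromosome 15 from 61985391 to 61990374 on the plus strand, with no other protein-coding gene in its window. The window held 8 regions, 4 in all 6 libraries, 2 in 2 to 5 and 2 in 1. The promoter region Myc_r4 (chr15:61984836-61985894) had fold enrichments of 7.35, 6.60 and 6.74 in PROLIF and 5.30, 6.45 and 6.55 in DIFF. The percentiles overlapped, from 79.2 to 83.0 in PROLIF and from 75.8 to 84.9 in DIFF. The log2 difference was -0.11 (SE 0.130, 95% interval -0.40 to 0.18, limma adjusted p = 0.635). Myc_r5 (chr15:61986773-61987338), within the gene, was at 4.70, 3.63 and 3.38 in PROLIF and 4.43, 4.50 and 4.24 in DIFF (log2 difference 0.28, SE 0.117, limma adjusted p = 0.150).

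The best-ranked distal region of Myc was Myc_r6 (chr15:62037676-62038399), 52631 bp downstream of the 5′ end in an exon of the noncoding gene Pvt1. Its fold enrichment was 10.2, 5.33 and 7.46 in PROLIF and 6.04, 8.001 and 7.27 in DIFF, with a log2 difference of -0.01 (SE 0.183, limma adjusted p = 0.986). PROLIF replicate 1 was the highest and PROLIF replicate 2 the lowest of the 6 libraries.

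Mycn (ENSMUSG00000037169.15) lies on chromosome 12 from 12936093 to 12941914 on the minus strand, also with no other protein-coding gene in its window. It had 5 regions, the fewest of the 9 genes, 3 of them in all 6 libraries. The promoter region Mycn_r4 (chr12:12941646-12942863) had fold enrichments of 6.38, 6.46 and 5.41 in PROLIF and 5.00, 7.45 and 6.79 in DIFF (log2 difference 0.13, SE 0.141, limma adjusted p = 0.605). The best-ranked distal region, Mycn_r2 (chr12:12904231-12905137), in an exon of the noncoding gene 4930519A11Rik and 37200 bp downstream of the Mycn 5′ end, ranked between percentiles 98.7 and 99.8. It was the best-ranked of the 121 regions and its log2 difference was 0.12 (SE 0.107, limma adjusted p = 0.538).

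The Mycn promoter is shown for its E2F matches. The 172 bases end at the base before the annotated gene start (RefSeq promoter table, GRCm38, chr12:12941915-12942086, strand of Mycn), and capitals mark E2F and GC box matches on either strand.
Mycn: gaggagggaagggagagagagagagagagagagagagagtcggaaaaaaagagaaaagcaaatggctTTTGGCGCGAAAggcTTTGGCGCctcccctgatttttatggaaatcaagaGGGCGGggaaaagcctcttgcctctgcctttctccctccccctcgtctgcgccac
It holds 3 E2F matches, the first pair of which overlap, where 1.86% of promoters in the table hold at least 1 in their 250 upstream bases.

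Beyond the best-ranked Mycn region lay one that came close to DIFF-only. Mycn_r1 (chr12:12898380-12899115), intergenic and 43052 bp downstream of the 5′ end, had fold enrichments of 7.34, 9.83 and 7.99 in DIFF, at percentiles 68.1, 72.6 and 74.7. In PROLIF it had a peak in replicate 1 alone, with a fold enrichment of 3.27 at percentile 7.70. It was singled out after its values were seen and was not tested, since 2 PROLIF libraries gave no value.

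**Figure D5:**
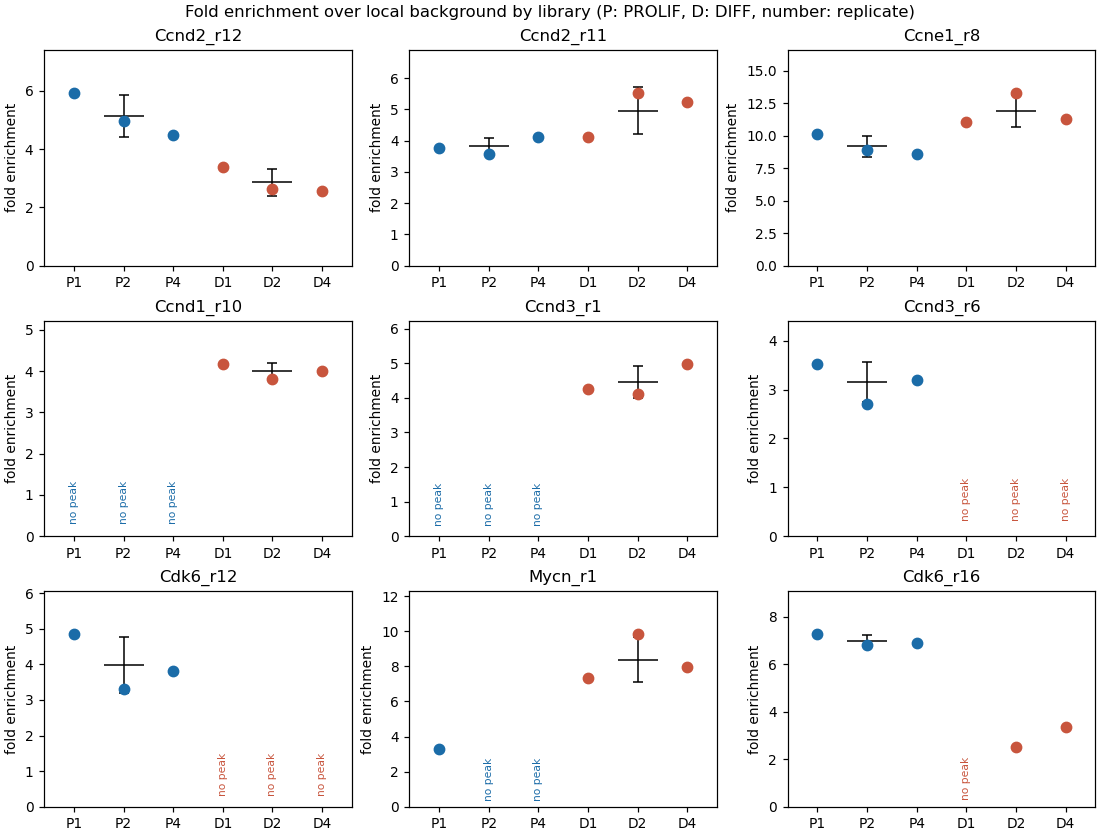
Fold enrichment over the local background (vertical axis, starting at 0) in each library for 9 regions. Blue points are PROLIF replicates 1, 2 and 4 (P1, P2, P4), red points DIFF replicates (D1, D2, D4), black bars mean ± SD where all 3 libraries of a state had a peak, and "no peak" marks a library without one; the states do not overlap at Ccnd2_r12 or Ccne1_r8, the next 4 panels after Ccne1_r8 are the state-only regions, and Mycn_r1 and Cdk6_r16 were chosen after their values were seen.

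Finally, the promoters of 32 other genes of the pathway were examined: the retinoblastoma family, E2F and DP factors, LIN proteins of the DREAM complex, Cdk2 with Ccna2, Cdc25a, Skp2 and Fbxw7, and the MYC and MAX network (Max, Mxd1, Mxd3, Mxd4, Mxi1, Mnt, Mga, Mlx, Zbtb17 and Mycl). All 32 had a promoter peak in all 6 libraries. By their best-ranked promoter region 1 was higher in DIFF, 0 were higher in PROLIF, and 21 of the 32 lay above 0. Among the 14051 tested promoters of all protein-coding genes, 9201 lay above 0. At promoters of all protein-coding genes, 2.38% were higher in DIFF and 1.48% higher in PROLIF. The median log2 difference was 0.11 for the 32 genes, 0.04 for the 9 members and 0.06 for all tested promoters. Mga, which encodes a MAX partner, was the gene that passed (log2 difference 0.45, SE 0.116, limma adjusted p = 0.0332), and this call was lost with the replicate number as a block (adjusted p = 0.0515). Of the others, Zbtb17, E2f2 and Rbl1 had the largest differences regardless of sign, at 0.38, 0.37 and 0.34 (limma adjusted p from 0.122 to 0.269). Named only as examples, Rb1, E2f1, Cdk2 and Max had differences of -0.22, 0.21, -0.15 and -0.05, with limma adjusted p from 0.333 to 0.809.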

How the data were processed

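ATAC-seq peak lists of 6 Srr2 del/del SEZ culture libraries were analysed, grouped by the state and replicate number in the labels. The authors removed adapters (Cutadapt), quality-trimmed reads and dropped those under 20 bases (Trimmomatic), aligned pairs to GRCm38 with Bowtie2 and called narrow peaks with MACS2 at a false discovery rate of 0.05, separately in each library. Versions, read extension, shift and blacklist are not given in the sources used here, and each could move peak edges. The deposited fold enrichment is a ratio of the summit pileup to the background of the same library. The −log10 p and −log10 q deposited by the authors are against that background, and the deposited score is 10 times the −log10 q in whole numbers. Lists are thresholded, so an absent peak is a signal that was not called. Read totals were not used here. Pileup and background were recovered from the fold and p of a peak under the caller's Poisson model, and at least 99.9866% of pileups came back whole.

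Genes came from GENCODE M21. Percentiles are ranks of −log10 p within a list. Where a library had several peaks in a region, the best-ranked was used. Fold enrichments printed per library are as deposited. They are not scaled between libraries, and the deeper DIFF replicate 4 had a lower median fold (4.28) than the others (4.92 to 5.81), so differences come from quantile-normalised log2 values in limma 3.58.1 (R 4.3.3), with Benjamini-Hochberg adjustment over all 40102 shared regions. State-only regions have a peak in all 3 libraries of a state and in 0 of the opposite one. Sequences were read from GRCm38.p6 and the RefSeq promoter table, which had entries for Ccnd3, Ccne1, Cdk4, Cdk6 and Mycn, with samtools 1.23.1 and pysam 0.24.0. Counts used Python 3.11.15, pandas 2.3.3, numpy 2.4.6 and scipy 1.17.1, and plots matplotlib 3.10.9. The scripts recovered changes planted in simulated data. Whether differences as small as those found here would be detected was not tested.

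The regions named are the best-ranked promoter region, the state-only and the called shared regions and the best-ranked distal region of each gene, with others named as such. Some marker genes are not reported here. The members and lists were chosen with earlier results of these data known. The limma fits and permutation tests are unpaired. The study speaks of paired profiling of shared cultures, but the sources do not say that a replicate number marks 1 culture, so the number was used as a block only in an alternative. Deviations of same-numbered libraries from the state means correlated at 0.0733, 0.122 and 0.105 for replicates 1, 2 and 4, and those of different numbers between -0.0914 and -0.00344, so each library correlated best with its own number, but replicate 1 only weakly.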

Additional observations from a re-analysis of the deposited data

How the results depend on the processing

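The 4 state-only regions kept their pattern at a q of 0.01, with lists cut to 59792 peaks, with the replicate block and without each library, and 0 of the 4 did at a cover of at least 50%. That cover left 33 regions in all 6 libraries. It gave 3 PROLIF-only regions (2.48%), Ccnd1_r11 among them, against 2.3% of regions near protein-coding genes. DIFF-only regions at that cover were 2 (1.65%), against 3.78%. Lists of equal length gave 5 DIFF-only regions. Under the replicate block, which asked for a difference in at least 2 of 3 same-numbered pairs and the opposite in none, 4 of 121 regions leaned to PROLIF (3.31%) and 10 to DIFF (8.26%), against 5.94% and 11.3% of regions near protein-coding genes. With the number as a block in limma, 0 shared member regions and 0 of the 32 related promoters were higher in DIFF, and Ccnd2_r12 stayed higher in PROLIF. The block on the related promoters was added after seeing the data. Over regions in at least 2 libraries of each state, 2 were higher in PROLIF (Ccnd2_r12 and Cdk6_r16) and 0 in DIFF, of 64 tested, where 6.52% and 5.61% of all such regions were. The Ccne1_r8 call was lost there too, at a limma adjusted p of 0.0511.

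With each library dropped in turn there were 2 to 4 PROLIF-only regions (4 without PROLIF replicate 4), 2 to 9 DIFF-only regions (9 without PROLIF replicate 1), 1 or 2 shared regions higher in PROLIF (2 without DIFF replicate 1) and 0 or 1 higher in DIFF. The 1 was Ccnd1_r2, without DIFF replicate 2, in place of Ccne1_r8. The log2 difference at Myc_r2, which did not pass the test, ranged from -0.16 to 0.14, without PROLIF replicates 2 and 4. The summed window difference stayed positive, from 0.333 to 16.8 peaks, with the larger value without PROLIF replicate 1 (exact permutation p = 0.2). The cause of these shifts was not tested. A q of 0.01, median centring, rank scores and promoters of 1 kb changed no call. The block changed no other call.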
